A study of Homo sapiens with 6 samples.

Results

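The fibroblast growth factor (FGF) ligands and receptors described here are 10 genes, the ligands Fgf1, Fgf2, Fgf7, Fgf18 and Fgf21, the intracellular factor Fgf13 and the receptors Fgfr1, Fgfr2, Fgfr3 and Fgfr4. They were chosen by gene symbol, and all 10 are listed among the 22989 genes of the count table. RNA was sequenced in 6 libraries whose labels name PTX-resistant MDA-MB-231 BCSC, 3 labelled LINC00115 KD and 3 labelled WT. The aim was to ask what loss of the long non-coding RNA LINC00115 changes in these cells. The cell line, MDA-MB-231, came from a human breast cancer of the triple-negative kind, PTX is paclitaxel, a drug that stabilizes microtubules, and the BCSC (breast cancer stem-like cells) were sorted by the study for high aldehyde dehydrogenase (ALDH) activity. Both groups share the line, the resistance and the cell type named in the labels. The KD cells differ by a short hairpin RNA (shRNA) against LINC00115, while the other group is named wild type in the labels and no shRNA is given for it there. The study's text gives the hairpin of the sequenced KD cells as sh115-2, while the labels name the KD libraries sh115-1 to sh115-3, and sh115-1 and sh115-2 are also the study's names for different hairpins. Whether the KD libraries carry 1 hairpin cannot be told from these names. The labels do not say whether libraries came from separate cultures, so the p-values below measure the spread between these libraries, which may be technical.

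FGFs are secreted proteins that bind receptor tyrosine kinases together with heparan sulfate, the sugar chains of cell-surface proteoglycans. The activated receptor phosphorylates the adaptor Frs2 and signals through RAS and ERK, PI3K and PLC gamma, and ERK in turn switches on its own inhibitors, the Sprouty, Spred and Dusp genes. Endocrine FGFs such as Fgf21 travel in blood and need a Klotho protein as co-receptor, and FGF homologous factors such as Fgf13 stay inside the cell, where they bind sodium channels. In breast cancer, FGFR1 and FGFR2 are known as genes that can be amplified, and basic FGF, the product of FGF2, is a common additive of sphere medium. The study's sphere medium held it, but its sources do not say whether the sequenced cells were grown in that medium.

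The libraries held between 36979221 and 38799331 counts, so that 1 count was worth between 0.0259 and 0.0272 normalized CPM (the usual CPM unit, with library totals scaled by TMM), and 3 counts, the limit that a count of 0 allows, lay between 0.0776 and 0.0817 CPM. This limit covers counting error only. The gene symbols are in mouse style, which goes against the human line in the labels. Of 22989 symbols, 4650 begin with Gm and a digit, 1129 end in Rik, and 29 equal a human symbol as written. Which species the reads came from was not tested. The table has 0 symbols that contain LINC00115, so the knockdown was not checked here, and KD and WT below mean the libraries labelled so. Of 8 mesenchymal genes listed for this line, Vim, Fn1, Cd44, Axl and Twist1 had at least 1246 counts in every library, Zeb1 23 to 64, and Cdh2 and Snai2 at most 2. Of the ALDH genes, Aldh1a3 had between 0 and 4 counts, Aldh1a2 0 or 1, and Aldh1a1 8 to 17 counts in WT and 39 to 52 in KD, so these ALDH genes had few counts or none. The epithelial marker Epcam had at most 5 counts and Krt8 at least 17687.

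The receptor genes Fgfr1 and Fgfr2 carried nearly all counts of the family, and they moved in opposite directions. Fgfr2 rose 1.41-fold and Fgfr1 fell 1.25-fold in KD, while the less counted Fgfr3 fell 2.35-fold. The receptor sum was 315 to 327 CPM in WT and 328 to 334 CPM in KD. Of the ligands, Fgf7 rose 2.41-fold from few counts, and the difference of Fgf1, the ligand with the most counts, did not pass the test. Fgf2, Fgf13, Fgf18, Fgf21 and Fgfr4 had too few counts to be tested. A gene was called when its adjusted p-value was under 0.05 and it differed more than 2-fold. Of the 5 members tested, 1 was called lower and 1 higher, where the background over 13497 genes tested was 9.98% lower and 10.2% higher (20.2% in either direction). Without the fold threshold, 2 members were lower and 2 higher, against 36.7% and 36.7% of all genes tested (73.4% in either direction). The values of 4 of the 5 did not overlap between the groups, which was so for 75.6% of all genes tested. These counts, out of 5 genes, are not read as a result about the family. All 5 members tested had at least 20 counts in every library. Their median log2 fold change was 0.06, beside −0.0061 for all genes tested.

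**Figure D1:**
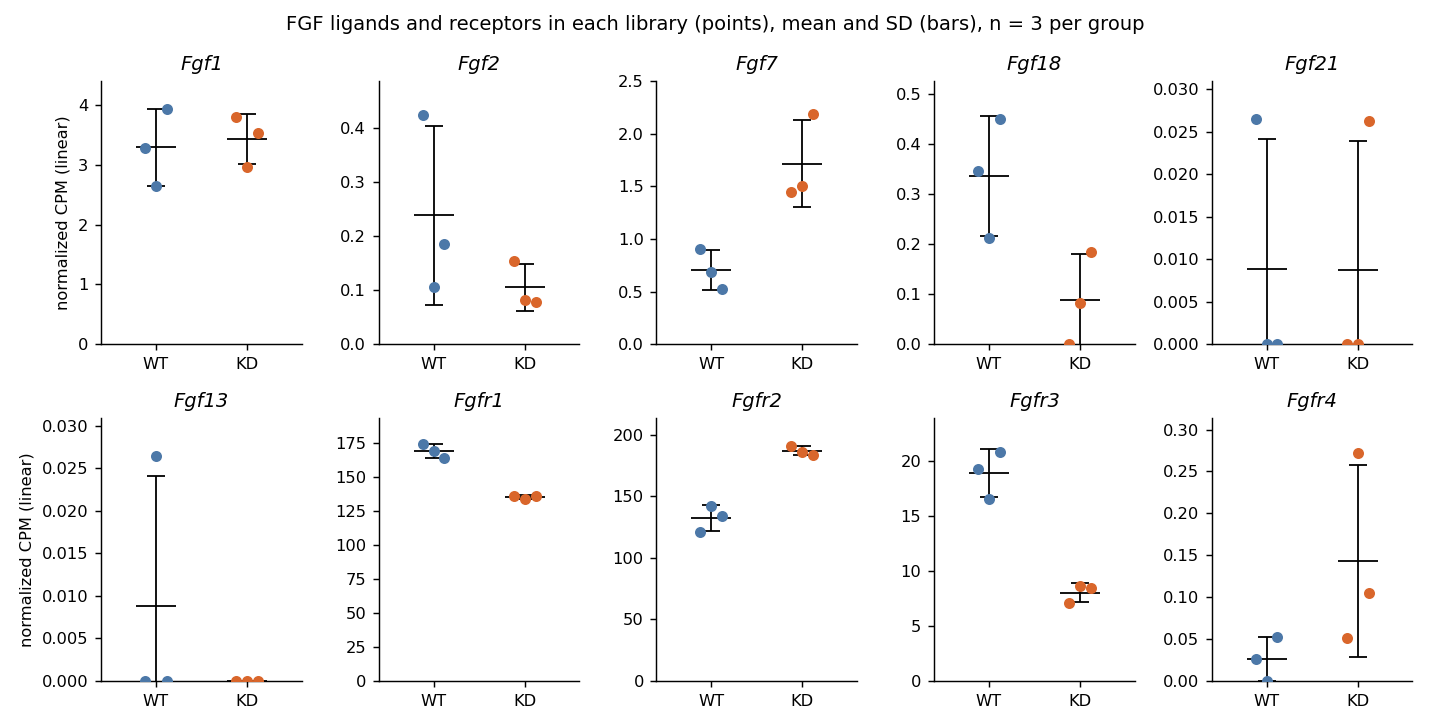
Normalized CPM (linear axes that start at 0 and differ between panels) of the 10 genes in each WT and LINC00115 KD library (points), with the group mean and SD (bars, n = 3). Fgfr1 and Fgfr3 lie lower and Fgfr2 and Fgf7 higher in all 3 KD libraries than in any WT library, and the panels of Fgf13 and Fgf21 rest on single counts.

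Fgfr1 encodes a receptor whose mesenchymal isoform responds to Fgf2 and many other ligands. It had 6558, 6363 and 6207 counts in the WT libraries and 5265, 4905 and 5148 in the KD libraries. The lowest WT library was above the highest KD library. In normalized CPM, the level fell from 169 ± 4.91 to 135 ± 1.31 (SD, n = 3 each), and edgeR's quasi-likelihood test gave a log2 fold change of −0.32 ± 0.04 (SE) with an adjusted p of 3.40e-09. This passed the test but not the fold threshold of 2, with a 95% interval from −0.40 to −0.24.

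Fgfr2 encodes the receptor whose epithelial isoform is the main receptor of Fgf7 and Fgf10. Its counts were 4573, 5374 and 5075 in WT and 7389, 6839 and 6994 in KD. Each KD library was above each WT library. The level rose from 133 ± 10.6 to 187 ± 3.52 CPM (SD, n = 3 each), and edgeR gave a log2 fold change of 0.50 ± 0.04 (SE) with an adjusted p of 3.23e-12, also under the fold threshold, with a 95% interval from 0.41 to 0.59. The counts are per gene and do not separate the epithelial from the mesenchymal isoform.

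Fgfr3, a receptor best known for restraining the growth of cartilage and for mutations in bladder cancer, had 729, 626 and 788 counts in WT and 274, 318 and 320 in KD. The groups were far apart relative to the spread within them. The level fell from 18.9 ± 2.17 to 8.06 ± 0.851 CPM (SD, n = 3 each), and edgeR gave a log2 fold change of −1.23 ± 0.11 (SE, 95% interval −1.45 to −1.01) with an adjusted p of 2.67e-12. It was the member called lower. As these are bulk RNA samples, fewer cells that express a gene and less of its RNA per cell cannot be told apart.

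Fgfr4, the main receptor for endocrine FGFs in liver, had 1, 0 and 2 counts in WT and 2, 10 and 4 in KD. The groups overlapped, and the gene did not pass the filter on low counts. Without the filter on low counts, the log2 fold change was 2.29 (95% interval −0.50 to 5.09, adjusted p = 0.184, edgeR), so a difference was not detectable at this depth.

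**Figure D2:**
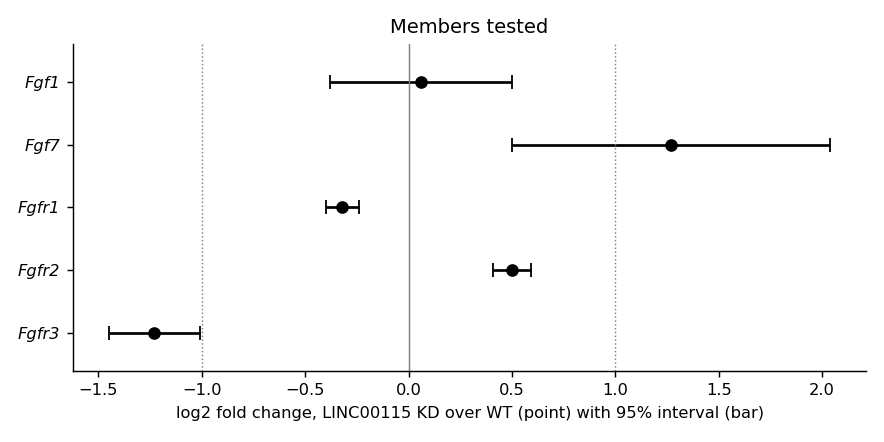
Log2 fold change of the 5 members that were tested, LINC00115 KD over WT (points), with 95% intervals (bars), on an axis where dotted lines mark a fold change of 2 in either direction. Fgfr3 lies wholly below −1, Fgf7 has the widest interval (0.50 to 2.04), and the interval of Fgf1 spans 0.

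Since each gene's length and mappable sequence differ, the counts do not rank the receptors against each other, but a ratio of 2 genes within a library can be compared across libraries. The count ratio of Fgfr2 to Fgfr1 was 0.697, 0.845 and 0.818 in WT and 1.40, 1.39 and 1.36 in KD. Each KD library was above each WT library in this ratio, a rise of 1.76 times in the mean. A ratio of 1 is no meaningful limit here, as the lengths of the 2 genes differ. The two-sided exact permutation test over the 6 libraries gave p = 0.1, the smallest value that 3 libraries against 3 allow, and 0.133 when adjusted over the 8 sums, shares and ratios computed. The ratio does not depend on library scaling.

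As a share of the counts on the 4 receptors, Fgfr2 made up 41.4% ± 2.53 in WT and 56.6% ± 0.521 in KD (SD, n = 3 each). The share of Fgfr1 went from 52.7% ± 2.22 to 40.9% ± 0.361, and that of Fgfr3 from 5.91% ± 0.759 to 2.44% ± 0.280. Each of these 3 shares had no overlap between the groups (exact permutation p = 0.1 for each, adjusted 0.133). Fgfr4 stayed at or under 0.0828% in every library. The summed receptor level was 321 ± 6.40 CPM in WT and 330 ± 3.34 in KD, a difference of 9.85 CPM (exact permutation p = 0.1, adjusted 0.133). The groups did not overlap in this sum either, with 327 CPM in the highest WT library and 328 in the lowest KD library. As a fold, the sum (1.03 times) moved less than Fgfr1, Fgfr2 or Fgfr3. With upper-quartile scaling the difference in the sum was 0.601 CPM.

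**Figure D3:**
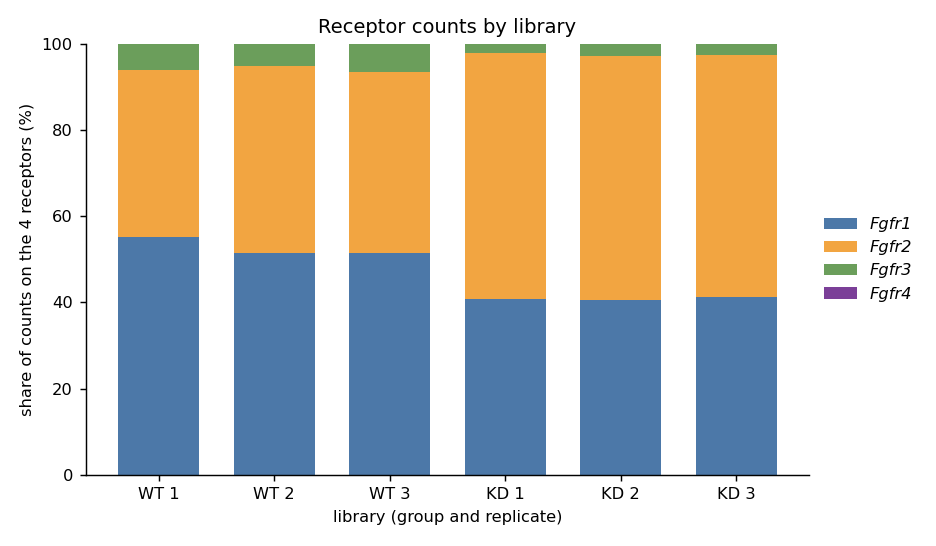
Share of the counts on the 4 receptor genes taken by each of them (stacked bars, percent), in each library. Fgfr2 takes 38.6% to 43.5% in the WT libraries and 56.1% to 57.1% in the KD libraries, and the bar of Fgfr4, at most 0.0828%, is too thin to see.

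Fgf7, or keratinocyte growth factor, is made by mesenchymal cells and acts on epithelium through the epithelial isoform of Fgfr2. It had 34, 26 and 20 counts in WT and 56, 55 and 83 in KD. Each KD library was higher than each WT library, but the highest KD library stood apart from the other two. The level rose from 0.707 ± 0.187 to 1.71 ± 0.412 CPM (SD, n = 3 each), and edgeR gave a log2 fold change of 1.27 ± 0.38 (SE, 95% interval 0.50 to 2.04) with an adjusted p of 0.00319. Over the alternatives tried, the log2 fold change ranged from 1.06 to 1.48 and the adjusted p from 0.000631 to 0.0338. It was the member called higher, and the wide interval goes with its low counts.

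Fgf1, the ligand that can bind all FGF receptors and lacks a classical secretion signal, had 124, 100 and 149 counts in WT and 147, 109 and 134 in KD. The groups overlapped throughout. The level was 3.29 ± 0.647 CPM in WT and 3.43 ± 0.424 in KD (SD, n = 3 each), and edgeR gave a log2 fold change of 0.06 ± 0.21 (SE) with an adjusted p of 0.809. The 95% interval, from −0.38 to 0.50, leaves room for a change of up to 1.41-fold upward. Without WT replicate 2 or KD replicate 1 its sign turned (−0.07 and −0.01), still without passing the test.

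Fgf2, or basic FGF, is exported by a route outside the classical secretory pathway. It had 16, 4 and 7 counts in WT and 6, 3 and 3 in KD, with overlap between the groups. When the filter on low counts was left out, the log2 fold change was −1.15 (95% interval −3.06 to 0.76, adjusted p = 0.348, edgeR). The use of strand in the authors' counting is not known, and Fgf2 overlaps the antisense gene Nudt6, so these few counts may not all belong to it.

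Fgf18, a ligand of bone and lung development, had 13, 8 and 17 counts in WT and 0, 3 and 7 in KD. The lowest WT library was just above the highest KD library. The gene did not pass the filter on low counts with all 6 libraries, and without the filter its log2 fold change was −1.89 (95% interval −3.67 to −0.10, adjusted p = 0.0791, edgeR). It passed the filter and both thresholds without KD replicate 3 (log2 fold change −2.96, adjusted p = 0.0124) and without WT replicate 2 (−2.13, adjusted p = 0.0294), and missed them without KD replicate 1 (−1.30, adjusted p = 0.143) and KD replicate 2 (−1.83, adjusted p = 0.0819). No call is made for Fgf18 with all 6 libraries.

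Fgf21, a stress and fasting hormone of liver, had 1 count in 1 WT library and 1 count in 1 KD library. Fgf13 had 1 count in 1 WT library and none elsewhere. For both, every library lay at or under the limit of 3 counts, so their RNA was not detectable above it and no fold is given.

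Summed over the 6 non-receptor members, the level was 4.59 ± 0.791 CPM in WT and 5.35 ± 0.688 in KD (SD, n = 3 each), with overlap between the groups (exact permutation p = 0.4).

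Of the other FGF genes, 7 of 16 listed were found in the table and 2 were tested, of which neither passed. The counts of this list and of those below stand beside 36.7% lower and 36.7% higher over all genes tested. Past the fold threshold, these shares were 9.98% and 10.2%. Fgf11, an intracellular FGF homologous factor, had 73, 47 and 65 counts in WT and 60, 60 and 44 in KD (log2 fold change −0.17, adjusted p = 0.643, edgeR). Fgf17, a close relative of Fgf18, had 8, 13 and 17 counts in WT and 1, 5 and 11 in KD (−1.14, adjusted p = 0.138), and it passed only without KD replicate 3 (−2.02, adjusted p = 0.0451). Fgf10, the other main ligand of the epithelial Fgfr2 isoform, had 1 count in 1 WT library and none in the other 5 libraries.

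Among co-receptors and receptor partners, 6 of 12 genes were tested, and 3 were lower and 3 higher at an adjusted p-value under 0.05, 1 of them past the fold threshold. Nrcam, a cell adhesion molecule of the L1 family, had 4, 9 and 13 counts in WT and 79, 52 and 60 in KD (log2 fold change 2.85, standard error 0.47, adjusted p = 1.76e-06, edgeR). Fgfrl1, the receptor relative without a kinase domain, rose slightly (0.26, adjusted p = 0.000688), as did Flrt3, a membrane protein that binds FGF receptors (0.20, adjusted p = 0.00715), which missed the test without KD replicate 1 (0.16, adjusted p = 0.0604). L1cam (−0.74) and the integrin genes Itgb3 (−0.67) and Itgav (−0.47) fell. Klb, the co-receptor of Fgf21, had 6 counts in 1 WT library and 0 in the other 5. Kl, the co-receptor of Fgf23, had 4, 0 and 0 counts in WT and 15, 7 and 12 in KD, and did not pass the filter on low counts with all 6 libraries. Without the filter its fitted log2 fold change was 2.97 (adjusted p = 0.0168, edgeR), and it passed the filter and the test in 4 fits that left out 1 library (adjusted p from 0.00107 to 0.0364). With at least 10 counts asked of every sample, Nrcam could not be tested.

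Of 24 genes of heparan sulfate and FGF carriers, 18 were tested, and 6 were lower, 8 higher and 4 not past the test, with a median log2 fold change of 0.07 and 0 genes past the fold threshold. Hs2st1, which adds the 2-O-sulfate to heparan sulfate, fell (−0.80, adjusted p = 3.98e-18, edgeR), and so did Hspg2, the core protein of perlecan (−0.70). Hs6st1, which adds the 6-O-sulfate, rose (0.57), as did the glypican gene Gpc4 (0.80) and Sdc1, which encodes syndecan-1 (0.33). Sdc2, a further syndecan gene counted as higher, missed the test without WT replicate 1 (0.06, adjusted p = 0.145) and without KD replicate 3 (0.11, adjusted p = 0.0645). Fgfbp1, a secreted carrier that frees FGFs from the matrix, had 0, 2 and 1 counts in WT and 8, 35 and 30 in KD. It did not pass the filter on low counts with all 6 libraries. Without the filter its fitted log2 fold change was 4.45 (adjusted p = 3.04e-06, edgeR), a value that rests on at most 2 counts in any WT library. It passed the filter and the test in 4 fits that left out 1 library, with log2 fold changes from 3.92 to 5.30. Of the 6 genes of the release route of Fgf1 and Fgf2, 5 were tested and 1, S100a13, fell (−0.26, adjusted p = 0.00529).

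Of 6 regulators of receptor splicing, 5 were tested, and 4 were lower and none higher, with a median log2 fold change of −0.21. Esrp1, which favours the epithelial isoform of Fgfr2, had at most 4 counts in any library, and Esrp2, its relative, had 41 to 63 counts in WT and 58 to 67 in KD (0.25, adjusted p = 0.503, edgeR). The splicing repressor Ptbp1 fell (−0.30, adjusted p = 2.53e-10), as did Rbfox2 (−0.16), Hnrnpa1 (−0.21) and Hnrnpm (−0.46).

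The 25 adaptors and effectors were all tested, and 11 were lower, 6 higher and 8 not past the test, none past the fold threshold, with a median of −0.07. Frs2, the main adaptor, did not pass (−0.08, adjusted p = 0.203, edgeR). Frs3, its relative, fell (−0.97, adjusted p = 0.000393) from 169, 114 and 178 counts to 95, 65 and 76. The phosphatase Ptpn11 rose (0.57), as did the RAS exchange factor Sos2 (0.87). Shc1 (−0.67), Plcg1 (−0.59) and the kinase gene Mapk3, which encodes ERK1 (−0.74), fell. Gab1 also fell (−0.60, adjusted p = 0.00648), a call that was lost without KD replicate 3 (adjusted p = 0.0617) and without WT replicate 2 (adjusted p = 0.0586). Pik3ca, a PI3K subunit, counted among the 11 lower genes and lost its call in most fits that left out a library (adjusted p = 0.366 without KD replicate 1).

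Feedback inhibitors of the pathway went both ways. Of 12 tested, 6 were lower, 3 higher and 3 not past the test, and 2 were past the fold threshold in each direction. Dusp7, a phosphatase of ERK, rose from 1766, 1962 and 2043 counts to 6919, 6383 and 6893 (log2 fold change 1.80, standard error 0.05, adjusted p = 4.20e-27, edgeR). Spry1, a Sprouty inhibitor of RAS and ERK signalling, rose from 164, 240 and 173 counts to 520, 523 and 543 (1.46, standard error 0.13, adjusted p = 4.85e-12). For both, every KD library lay well above every WT library. Spred3 fell from 1835, 1890 and 1955 counts to 671, 651 and 627 (−1.54, standard error 0.07, adjusted p = 1.20e-20). Il17rd, which encodes the FGF receptor inhibitor Sef, fell from 80, 54 and 70 counts to 23, 25 and 53 (−1.01, standard error 0.37, adjusted p = 0.0154). That call did not hold without WT replicate 1 (−0.88, adjusted p = 0.0725), KD replicate 1 (−0.78, adjusted p = 0.0824) or KD replicate 2 (−0.85, adjusted p = 0.0648), and without WT replicate 3 the change was under 2-fold (−0.99). Spry2 fell (−0.67) while Spry4 rose (0.30). Dusp6, the ERK phosphatase most often used as a readout of FGF signalling, did not pass (−0.04, adjusted p = 0.411), though it fell just past the test without WT replicate 1 (−0.08, adjusted p = 0.05 after rounding).

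Of 13 genes that FGF and ERK signalling is known to induce, 5 were lower, 6 higher and 2 not past the test, with a median of 0.06. Etv4 (−0.52, adjusted p = 4.20e-13, edgeR) and Etv5 (−0.72, adjusted p = 4.61e-16), transcription factors of the PEA3 group that follow FGF signals in many tissues, fell in every KD library. Etv1, of the same group, rose (0.23, adjusted p = 0.00518), a call lost without WT replicate 1 (adjusted p = 0.0649) and without KD replicate 1 (adjusted p = 0.0640). Ier3, an early response gene, was the only one past the fold threshold and fell from 24880, 24487 and 24544 counts to 7692, 6401 and 7528 (−1.78, standard error 0.04, adjusted p = 2.63e-29). Egr1 (0.79), Myc (0.92), Ccnd1 (0.39) and Phlda1 (0.48) rose. Genes with many other inputs, such as Myc and Egr1, are not specific to FGF.

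**Figure D4:**
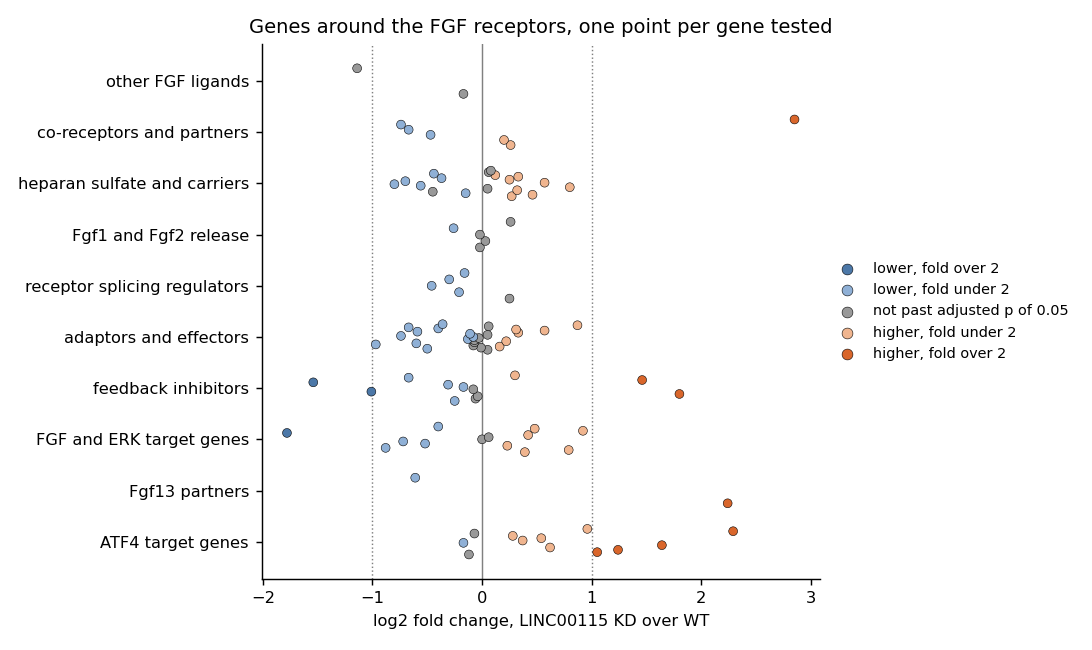
Log2 fold change, LINC00115 KD over WT, of each tested gene in the 10 lists around the FGF receptors (1 point per gene, coloured by the result of edgeR's test), with dotted lines at a fold change of 2. Points lie on both sides of 0 in most lists, with 38 genes lower and 36 higher of 100 tested (36.7% and 36.7% over all genes tested). All 4 past the fold threshold among the ATF4 target genes are higher, where 10.2% of all genes tested were higher and 9.98% lower past it.

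Across the 10 lists together, 100 genes were tested, and 38 were lower, 36 higher and 26 not past the test. Their median log2 fold change was −0.03. Over all genes tested, 36.7% were lower and 36.7% higher, so these counts were close to the whole table. Past the fold threshold, 3 were lower and 8 higher, where the shares over all genes tested were 9.98% and 10.2%.

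Among sodium channel genes, which encode partners of Fgf13, 2 of 7 listed partners were tested, and 1 was lower and 1 higher. Scn8a fell (−0.61, adjusted p = 1.54e-13, edgeR), while Fgf13 itself was not detectable. A list of 12 ATF4 target genes was included because Fgf21 is one. Of these 9 were higher, 1 lower and 2 not past the test, with a median of 0.58, where 36.7% of all genes tested were higher and 36.7% lower. Slc7a11 (2.29), Cth (1.64), Atf3 (1.24) and Asns (1.05) were past the fold threshold, as were 10.2% of all genes tested in that direction, while Fgf21 stayed at 1 count or none in every library. The lower gene, Ddit3 (−0.17, adjusted p = 0.0311, edgeR), did not pass without WT replicate 1, WT replicate 3, KD replicate 1 or KD replicate 2 (adjusted p = 0.112, 0.175, 0.114 and 0.106). Aldh1l2 (−0.12, adjusted p = 0.0713) passed without WT replicate 2 (adjusted p = 0.0114) and without WT replicate 3 (adjusted p = 0.0260), and with upper-quartile scaling (adjusted p = 0.0170).

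Markers of several tissues also differed between the groups, in a table where the groups did not overlap for 75.6% of all genes tested. The marker counts here and in the next paragraph stand beside that share, and they include genes with too few counts to be tested. Of 12 lung epithelium genes, 12 were higher in all 3 KD libraries than in any WT library, and their summed level was 1.78 to 2.07 CPM in WT and 74.1 to 84.6 CPM in KD. The defining genes Sftpc and Scgb1a1 were at 0 counts in all 3 WT libraries, and Nkx2-1 had 2 to 5 counts in KD. Of 12 kidney tubule genes, 10 were higher in every KD library and 1 lower, with sums of 9.45 to 10.1 and 30.3 to 33.5 CPM. Of 11 breast epithelial genes, 5 were higher in every KD library and 2 lower, with sums of 707 to 729 and 1040 to 1090 CPM. Most of that sum was Krt8 (mean 472 CPM in WT and 752 in KD), while Gata3, 1 of the 2 lower genes, fell from 95.8 to 53.2 CPM.

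Fibroblast genes, which mark the usual source of Fgf7, summed to 175 to 193 CPM in WT and 76.6 to 78.7 CPM in KD, and 2 of 10 were higher and 3 lower in every KD library. Most of that sum was Pdgfra, while Thy1 had at most 1 count and Lum at most 2 in any library. Of 8 endothelial genes 3 were higher in every KD library (0.715 to 1.22 and 57.5 to 60.2 CPM in sum), nearly all of it Cdh5, with Pecam1 at most 19 counts. Of 10 leukocyte genes 4 were higher and 1 lower (34.9 to 35.8 and 99.7 to 111 CPM, mostly S100a8), with Ptprc at most 13 counts and Cd3e at 0 in all libraries. Liver genes summed to at most 1.53 CPM in any library, with 3 of 7 higher in every KD library. Of 5 adipocyte genes 1, Fabp4, was higher and 1, Pparg, lower, with sums of 14.2 to 18.0 and 45.3 to 47.3 CPM. Nearly all of that sum was Fabp4, while Adipoq had at most 7 counts in any library. The part of any of these cell types in the changes of the FGF genes was not tested.

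The genes whose levels followed the members most closely over the 6 libraries were, for Fgf1, Nfkbib (Pearson r = 0.9626), Gchfr (0.9563) and Antkmt (0.9487), and for Fgfr2, the receptor with the highest mean count, Trim65 (0.9998), Pafah1b1 (0.9992) and Dnaja2 (0.9989). These are the highest of 9135 genes with a mean of at least 10 CPM, on a log2 scale. For Fgfr2, 3010 genes had an r over 0.9, as the 6 points form the same pair of groups for every gene that differs between them.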

How the data were processed

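Total RNA was sequenced from 3 KD and 3 WT samples. The kits differ between the sources: TRIzol with SMARTER reagents per the labels, RNeasy Plus with NEBNext Ultra per the methods. The authors trimmed adapters, mapped reads with HISAT2 and deposited whole-number counts per gene symbol without normalization. The submitters' processing notes name featureCounts, DESeq2 and build hg38, while the methods name hg19. Annotation, strand setting and treatment of multi-mapped reads are not given in the sources used here. Columns were matched to samples by the description in the labels, and 0 columns of values were left unused.

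The whole table was fitted with edgeR 4.0.16 (R 4.3.3): filterByExpr (minimum count 10, minimum total 15), TMM, the quasi-likelihood test with group only, and Benjamini-Hochberg adjustment over 13497 genes. Each standard error is |log2 fold change| over the root of its F statistic. The pipeline was tested on simulated counts. Alternatives were other scalings, no low-count filter or one of 10 counts in all samples, fits without 1 replicate, a replicate block, DESeq2 1.42.0 and edgeR's test against a fold change of 1.5.

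The members and lists were chosen with earlier results of these data known. All members are named, and from the lists the genes past both thresholds whose higher group has a minimum of 100 counts per library, at most 4 a list (for other FGF ligands, co-receptors and feedback inhibitors, any past both thresholds). Other genes were named after their values were seen. Single values of some listed genes are not reported here. Likeness was computed for the ligand and the receptor with the highest mean count. The biological coefficient of variation was 5.21%. Within groups, the chi-square between library pairs was at least 3.38 per degree of freedom, more than sampling noise gives for a duplicate. Both thresholds for calls follow the study's methods.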

Additional observations from a re-analysis of the deposited data

How the results depend on the processing

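Fgfr3 kept its call as lower and Fgf7 its call as higher under every alternative tried, with log2 fold changes from −1.32 to −1.14 and from 1.06 to 1.48. Fgfr1 ranged from −0.36 to −0.30 and Fgfr2 from 0.44 to 0.55, past the test each time and never past a fold of 2. With each replicate left out, 1 to 2 members were called lower, the added one being Fgf18, which then passed the low-count filter. Within the 10 lists, 34 to 44 genes were lower and 35 to 41 higher over the alternatives. With at least 10 counts in every sample, 903 genes of the whole table were called higher in place of 1381. Replicate numbers gave no pairing, since the deviations of same-numbered libraries correlated between −0.0202 and 0.0135. With the replicate number as a block, 1 member was called lower and 1 higher. The receptor shares and ratios differed in the same direction under each replicate left out, but 3 libraries against 3 allow no exact p under 0.1. Depth limits what can be said of Fgf2, Fgf13, Fgf18, Fgf21 and Fgfr4.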
